A study of Mus musculus with 24 samples.

Results

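The tripartite motif (Trim) genes encode a family of ubiquitin ligases and related proteins, and their messenger RNA was examined here for N6-methyladenosine (m6A) from the oocyte to the blastocyst. Members were the protein-coding mm10 genes whose symbol is Trim followed by a number, without Trim28, Trim30a and the Trim43 genes. Of 68 symbols of that form 5 were left out. This gave 63 members among 21887 protein-coding genes on chromosomes 1 to 19, X and Y. The rule reads symbols alone, but it was chosen with earlier results of these data known. The study immunoprecipitated methylated RNA with an m6A antibody in a low-input protocol, and the authors called peaks in each of 12 antibody-bound libraries, with the matching input as control. Each of 6 stages had 2 replicates from C57BL/6N mice that were 8 weeks old, with no transgene or drug comparison. The groups were germinal vesicle (GV) oocytes of the surrounded-nucleolus type in pools of 49, metaphase II (MII) oocytes in pools of 100 and 110, zygotes, 2-cell embryos and blastocysts in pools of 100, and 8-cell embryos in pools of 100 and 51. The females had received pregnant mare serum gonadotropin and, except for GV oocytes, chorionic gonadotropin, after which MII oocytes were taken at 14 h, zygotes at 27 to 28 h, 2-cell embryos at 39 to 43 h, 8-cell embryos at 68 to 70 h and blastocysts at 92 to 94 h.

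TRIM proteins carry a RING finger, which recruits a ubiquitin-charged E2 enzyme, followed by B-box zinc fingers and a coiled coil through which they form dimers. The domain at the C terminus sets what they bind and divides the family into subfamilies, among them a large group with a PRY-SPRY domain, the NHL-repeat proteins and the transcriptional co-regulators with a PHD finger and bromodomain. Many members act in antiviral signalling, and others in chromatin control, cell division and protein turnover. m6A is written on messenger RNA by the METTL3-METTL14 complex, often near stop codons, and is known to affect the stability of maternal transcripts.

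A gene was called marked in a library where a peak overlapped its gene body by at least 1 bp. GV oocytes, MII oocytes and zygotes, which live mainly on RNA made during oocyte growth, form the maternal phase (6 libraries), and 2-cell embryos, 8-cell embryos and blastocysts the embryonic phase (6 libraries). The lists held 6914 to 11959 peaks. Read depth is unknown, so missing peaks can mean no methylation, little RNA or a signal below detection, and in pooled embryos fewer cells carrying a transcript and less of it per cell cannot be told apart. Fold enrichments are the authors' values and are given only to describe a peak within its own list. Exons were not used here and strand was taken for 50 of the 63 members, so positions are distances from gene ends, and a peak in a gene body can lie in an intron or belong to an overlapping transcript. Marks on stage markers followed the labels in part: the oocyte kinase gene Mos was marked in 6 maternal and 0 embryonic libraries. The 2-cell gene Tdpoz1 was marked in 0 and 6, which follows the phase and not the 2-cell stage alone. The 2-cell genes Zfp352 and Usp17lc were each marked in both 2-cell libraries and 1 of the 8-cell libraries. The trophectoderm factor Cdx2 was marked in both 8-cell and both blastocyst libraries only. Others did not: the oocyte genes Zp3 and Oosp1 and the trophectoderm keratins Krt8 and Krt18 had no mark in any library, the 2-cell gene Zscan4d had 3 maternal marks, both GV libraries among them, and 4 embryonic ones, and Sox2 of the inner cell mass had 4 and 4. Of 7 cumulus and granulosa cell markers, 2 were marked, Cyp19a1 in both GV libraries and Has2 in MII replicate 1, giving 0 to 1 marked marker in each maternal library and 0 in each embryonic one.

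In 25 of 63 Trim genes (39.7%) at least 1 library had a peak, against 45.2% of all protein-coding genes. Trim13 and Trim59 were marked in all 12 libraries (3.17% of members, against 3.78% of all genes). All 6 maternal libraries marked 6 members (9.52%, against 10.4% of all genes): Trim13, Trim26, Trim59, Trim60, Trim61 and Trim75. All 6 embryonic libraries marked 5 (7.94%, against 7.46%): Trim13, Trim27, Trim33, Trim59 and Trim71. Marks were in both phases for 16 members, in maternal libraries alone for Trim15, Trim30d and Trim37, and in embryonic libraries alone for Trim2, Trim5, Trim6, Trim8, Trim11 and Trim25. Among marked genes, 64% of members and 50.0% of all genes had marks in both phases. The median gene length was 16358 bp over members and 17169 bp over all genes. Marked members were 20892 bp and unmarked members 15135.5 bp in the median, against 28665 bp and 10201.5 bp for all genes, so gene length moves with marking, and its part was not tested.

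**Figure D1:**
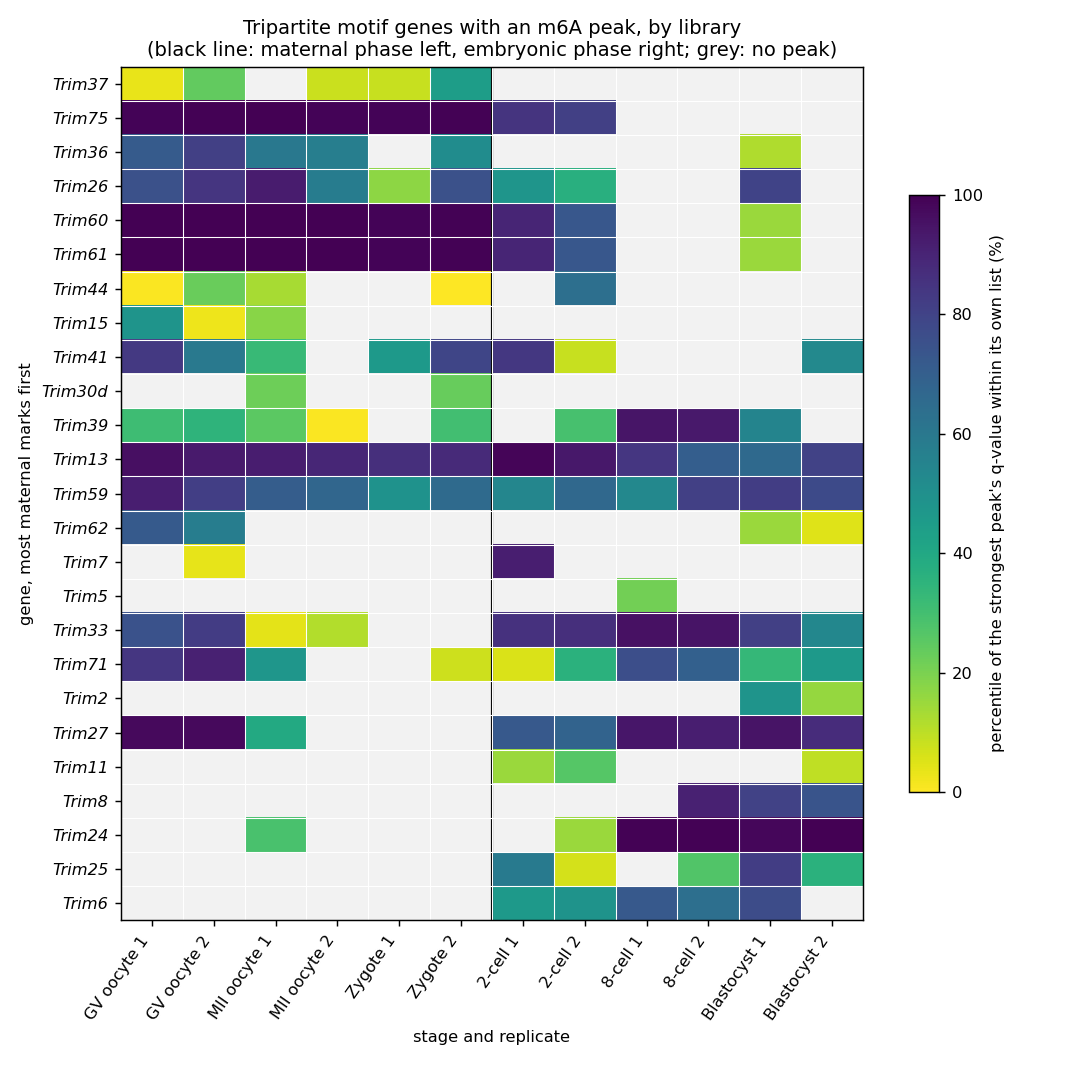
Rows are the 25 Trim genes with a peak and columns the 12 libraries, with the maternal phase left of the black line. Colour gives the percentile of the gene's strongest peak by q-value within its own list (%) and grey means no peak. Trim13 and Trim59 fill all columns, Trim37 is confined to maternal libraries and Trim6 and Trim25 to embryonic ones.

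The number of marked members was 16 and 17 in the GV libraries, 16 and 10 in MII oocytes, 8 and 13 in zygotes, 14 and 16 in 2-cell embryos, 9 and 10 in 8-cell embryos and 16 and 12 in blastocysts. As a share of members this was 26.2% ± 1.12 for the GV stage (SD, n = 2 in each stage), 20.6% ± 6.73 for MII, 16.7% ± 5.61 for the zygote, 23.8% ± 2.24 for 2-cell, 15.1% ± 1.12 for 8-cell and 22.2% ± 4.49 for the blastocyst. All genes gave 23.0%, 19.3%, 16.6%, 17.6%, 22.0% and 22.3% in the same order. In both GV libraries the share of members lay above that of all genes, by 3.37 and 3.06 percentage points. It did so by 5.35 and 7.03 points in 2-cell embryos and lay below in 8-cell embryos, at -6.84 and -6.91 points. MII, zygote and blastocyst libraries fell on both sides, with MII replicate 1 at 4.50 and replicate 2 at -1.74. Trim60 and Trim61, which share a site, count as 2 members here, and these gaps carry no test. By phase there were 13.3 ± 3.67 marked members in maternal and 12.8 ± 2.99 in embryonic libraries (SD, n = 6 each), ranges of 8 to 17 and 9 to 16 that overlap. Of the members marked in either library of a stage, 94.1% were marked in both in GV oocytes, 76.5% in 2-cell embryos, 72.7% in 8-cell embryos, 61.5% in zygotes, 55.6% in blastocysts and 52.9% in MII oocytes. Over all genes the same shares were 82.6%, 57.5%, 69.1%, 62.0%, 60.97% and 72.5%. Member marks were thus shared less than those of all genes between the MII libraries and more between the GV and the 2-cell libraries. The member shares rest on few genes, 9 of 17 in MII, 16 of 17 in GV and 13 of 17 in 2-cell libraries, and were not tested.

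**Figure D2:**
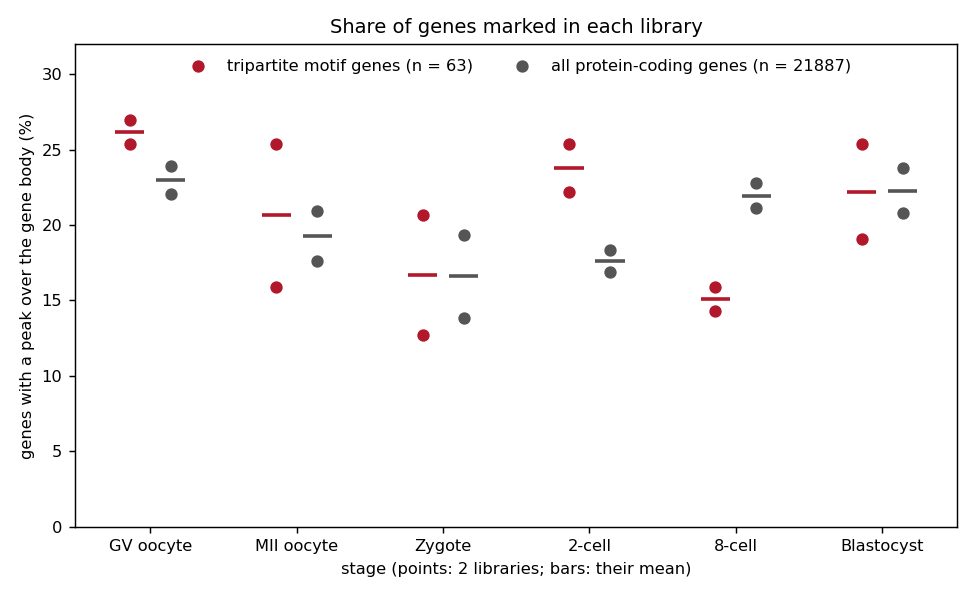
The share of genes with a peak over the gene body (%) is plotted for each stage, with 1 point per library and bars for the mean of 2. Red is the 63 Trim genes and grey all 21887 protein-coding genes: the red points lie above the grey ones at the GV and 2-cell stages and below them at the 8-cell stage.

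Between the phases, 3 Trim genes passed the test, Trim37 with maternal marks and Trim6 and Trim25 with embryonic ones. The test was a two-sided Fisher's exact test on marked libraries, with Benjamini-Hochberg adjustment at 0.05 over the 2310 protein-coding genes marked in 5 to 7 libraries, of which 6 are members. In that set 28.0% of all genes were called maternal, 21.6% embryonic and 49.6% in either direction, so 3 of 6 members is near the background and is no result about the family. Libraries of the same stage do not sample a phase independently, and the p-values hold for these 12 libraries only.

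Trim25, a PRY-SPRY ligase that activates the viral RNA sensor RIG-I and itself binds RNA, was marked in 5 of 6 embryonic and 0 of 6 maternal libraries (exact p = 0.0152, adjusted p = 0.0306). Its main site, chr11:89016377-89017105, lies 3553 bp before the 3′ end of the gene (chr11:88999403-89020294, plus strand). There the fold enrichment was 9.40 and 4.45 in the 2-cell libraries, 6.34 in 8-cell replicate 2, and 12.0 and 5.58 in the blastocyst libraries, with no peak in 8-cell replicate 1. The site was thus present at each embryonic stage and absent from all oocyte and zygote lists. The call was lost with equal list lengths (4 embryonic libraries), with a filter at the median score of the pooled lists (1), with a filter at the median fold of each list (3) and with peaks within 2000 bp of a gene end alone (0). RIG-I itself, encoded by Ddx58, had the opposite marks, with 6 maternal and 0 embryonic libraries (exact test, adjusted p = 0.00963).

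Trim6, which makes unanchored ubiquitin chains in interferon signalling, was marked in 0 maternal and 5 embryonic libraries (exact p = 0.0152, adjusted p = 0.0306). It had 4 sites, of which the most frequent, chr7:104232331-104232547, lies 2713 bp before the 3′ end, with fold values of 5.01 and 5.40 in the 2-cell, 3.37 and 2.92 in the 8-cell and 3.87 in the first blastocyst library. A site 549 bp from the 3′ end, chr7:104234503-104234704, was called in both 8-cell libraries (4.98 and 3.23) and in blastocyst replicate 1 (4.70), and in neither 2-cell library. Blastocyst replicate 2 had no Trim6 peak. None of these peaks reached the median fold of its own library, so a fold filter removes every Trim6 mark.

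Trim37, a MATH-domain ligase known for restraining centriole duplication, was marked in 5 maternal and 0 embryonic libraries (exact p = 0.0152, adjusted p = 0.0306). Its single site, chr11:87231324-87231949, had folds of 2.99 and 4.32 in GV oocytes, 4.09 in MII replicate 2 and 5.17 and 8.39 in zygotes. All 6 of its peaks also lie in Ppm1e, a protein phosphatase gene on the opposite strand, so the marks of Trim37 and Ppm1e cannot be told apart. With peaks that touch a single coding gene, Trim37 has none. All 3 calls were lost when genes marked in any number of libraries entered the adjustment (exact test, adjusted p = 0.131). Trim37 was also no longer called with equal list lengths (2 maternal libraries), under the score filter (1) or under the fold filter (1), and Trim6 under the score filter or near gene ends (3 embryonic libraries each).

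The 3 other members in the tested range did not pass. Trim24 had 1 maternal and 5 embryonic marks and Trim36, a microtubule-associated ligase, had 5 and 1 (exact test, adjusted p = 0.143 each). Trim44, a B-box protein without a RING finger, had 4 and 1 (exact test, adjusted p = 0.339). Trim24 passed without MII replicate 1 (exact test, adjusted p = 0.0436) or 2-cell replicate 1 (0.0305), and Trim36 without zygote replicate 1 (0.0400) or blastocyst replicate 1 (0.0357). Trim36 was also called maternal, with 5 and 0 libraries, with equal list lengths (exact test, adjusted p = 0.0287), under the score filter (0.0286) and under the fold filter (0.0430).

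Members with a transmembrane segment, Trim13 and Trim59, had the most marks. Trim13, an endoplasmic reticulum ligase that takes part in degrading misfolded proteins, carried 1 site, chr14:61604830-61605804, which lies 4970 bp before the 3′ end. By q-value within its own list, its strongest peak was at percentile 96.0 and 92.6 in GV, 92.1 and 89.4 in MII, 86.5 and 88.1 in zygote, 98.6 and 93.7 in 2-cell, 84.0 and 70.2 in 8-cell and 65.9 and 80.2 in blastocyst libraries. A peak was thus present in every list. The percentiles were lower in 8-cell and blastocyst than in GV lists, but places within separate lists cannot measure a change in methylation between stages. This stretch also lies within the long non-coding RNA gene Dleu2, and the 2 transcripts cannot be told apart. Trim59, also anchored in the endoplasmic reticulum, had 1 site 2005 bp from its 3′ end, chr3:69036475-69038119, with folds of 6.90 and 4.07 in GV, 4.24 and 4.19 in MII, 3.62 and 3.50 in zygote, 4.94 and 4.59 in 2-cell, 8.50 and 13.4 in 8-cell and 10.99 and 9.29 in blastocyst libraries.

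The transcriptional co-regulators with a PHD finger and bromodomain were marked in 2 of 3 cases. Trim24 (TIF1-alpha), a nuclear receptor coactivator and p53 ligase, held one of the strongest peaks of the late libraries. At chr6:37965439-37966177, 2637 bp before the 3′ end, the peak ranked 43 and 42 in the 8-cell lists and 170 and 21 in the blastocyst lists, with folds of 7.78, 6.60, 6.18 and 16.5, and no earlier library had it. Trim33 (TIF1-gamma), a ligase for SMAD4, was marked in all 6 embryonic libraries and in the 4 GV and MII libraries, with no peak in either zygote. Its main site, chr3:103353574-103354203, lies 4882 bp from the nearer gene end, with folds of 5.92 and 8.71 in GV, 2.24 and 2.76 in MII, 5.52 and 5.84 in 2-cell, 10.3 and 7.67 in 8-cell and 7.89 and 4.17 in blastocyst libraries. Trim66 had no peak.

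Among NHL-repeat proteins, Trim71 and Trim2 were marked and Trim3 and Trim32 were not. Trim71 (LIN-41), an RNA-binding repressor and classical let-7 target that is needed for embryonic development, was marked in 4 maternal and 6 embryonic libraries, at different places. Sites were taken as stretches of overlapping peaks merged over the libraries and tested in the same way over all 3549 sites in coding genes marked in 5 to 7 libraries, a test chosen after the gene results were seen. Of these, 32.2% were called maternal and 17.2% embryonic. The Trim71 site nearest the gene start, chr9:114563679-114564333 with its midpoint 363 bp inside the gene, was present in all 6 embryonic and 0 maternal libraries (exact test, adjusted p = 0.0102). Its folds were 4.36 and 4.39 in 2-cell, 5.90 and 7.61 in 8-cell and 3.99 and 7.96 in blastocyst libraries. By q-value these peaks were not strong: the best stood at percentile 46.4 of its own list (blastocyst replicate 2) and that of 2-cell replicate 1 at 5.67. Near the 3′ end, the site 1887 bp from it was present in 3 maternal and 5 embryonic libraries, and the one 2878 bp from it in both GV libraries alone (4.61 and 5.40). Both 8-cell libraries had a further site 906 bp from the start with folds of 13.0 and 12.2. The 5′ stretch was thus called in embryonic lists and the 3′ stretch in both phases. Trim2, a neurofilament ligase, had 1 peak in each blastocyst library, at sites that do not overlap (folds 8.90 and 5.66).

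Peaks reached the promoter window of 4 members, defined by RefSeq (GRCm38.p6) as 250 bases before to 50 after the gene start, and 3 windows are shown because peaks at these starts were seen in embryonic libraries alone. Capitals mark bases under a peak in at least 1 library, and sequences read 5′ to 3′ on the gene's strand.
Trim71, chr9:114564320-114564619, minus strand: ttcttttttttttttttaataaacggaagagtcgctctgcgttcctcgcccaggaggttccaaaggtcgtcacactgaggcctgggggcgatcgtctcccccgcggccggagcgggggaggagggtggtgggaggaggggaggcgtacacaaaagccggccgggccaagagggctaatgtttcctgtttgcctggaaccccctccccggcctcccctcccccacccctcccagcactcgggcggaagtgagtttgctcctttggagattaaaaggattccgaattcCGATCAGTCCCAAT
Trim7, chr11:48825888-48826187, plus strand: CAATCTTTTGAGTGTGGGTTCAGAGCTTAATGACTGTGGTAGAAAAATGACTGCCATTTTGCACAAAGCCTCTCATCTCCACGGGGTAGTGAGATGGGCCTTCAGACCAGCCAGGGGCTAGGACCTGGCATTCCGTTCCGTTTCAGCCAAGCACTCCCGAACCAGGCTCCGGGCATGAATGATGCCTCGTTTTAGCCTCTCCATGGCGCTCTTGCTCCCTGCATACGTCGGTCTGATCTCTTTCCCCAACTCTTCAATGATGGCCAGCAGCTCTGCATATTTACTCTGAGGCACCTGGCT
Trim39, chr17:36271955-36272254, minus strand: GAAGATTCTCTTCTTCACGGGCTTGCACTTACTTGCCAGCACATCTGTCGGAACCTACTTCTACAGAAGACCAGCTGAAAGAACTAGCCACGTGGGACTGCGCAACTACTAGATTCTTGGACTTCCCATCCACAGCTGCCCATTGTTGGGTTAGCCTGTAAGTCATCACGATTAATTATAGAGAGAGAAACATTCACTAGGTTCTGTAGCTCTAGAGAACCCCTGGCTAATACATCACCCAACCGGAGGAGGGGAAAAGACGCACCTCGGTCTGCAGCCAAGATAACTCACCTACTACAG
In Trim71 the peak of 2-cell replicate 1 covered the last 14 bases, all after the start. In Trim7 and Trim39 all 300 bases lay under a peak, including the 250 before the annotated start. The common m6A sequence GGACT was searched on both strands, with AGTCC as its reverse complement. It occurred 2 times on the sense strand of the Trim39 window, 0 times in the Trim7 window and 0 times on the sense and 1 time on the antisense strand of the Trim71 window. Of all 32851 windows in the table, 45.5% hold it on either strand and 26.1% on the sense strand. G and C made up 59.3% of the Trim71, 53% of the Trim7 and 48.7% of the Trim39 window, against a median of 52.7% over all windows. In Trim24, whose window is 70.3% G and C, 116 bases lay under peaks of both GV libraries, MII replicate 1 and 8-cell replicate 1.

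The Trim39 site over this start, chr17:36271776-36272278, was called in both 8-cell libraries, with folds of 10.7 and 12.0, and in no other. Trim39, a cell cycle ligase that inhibits the anaphase-promoting complex, had 6 sites, with marks in 5 maternal and 4 embryonic libraries. One 1842 bp from the 3′ end, chr17:36260351-36261078, had folds of 4.01, 3.98 and 3.18 in the GV libraries and MII replicate 1, and 6.48, 13.7, 8.24 and 7.80 in 2-cell replicate 2, both 8-cell libraries and blastocyst replicate 1. Another within the gene, chr17:36268725-36269168, was present in 5 maternal and 2 embryonic libraries (exact test, adjusted p = 0.343).

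The Trim7 site at the start, chr11:48825535-48826311, lies mostly upstream, over the pseudogene Gm12184, and was present in all 6 embryonic and 0 maternal libraries (exact test, adjusted p = 0.0102). Its folds were 10.7 and 4.99 in 2-cell, 5.93 and 5.60 in 8-cell and 3.40 and 4.80 in blastocyst libraries. The peak entered the Trim7 body in 2-cell replicate 1 alone, so Trim7, which binds glycogenin, counts as marked there and, at another site, in GV replicate 2.

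Of the 54 member sites, 10 were in the tested range, and 2 were called maternal and 4 embryonic. Over all tested sites 32.2% were called maternal, 17.2% embryonic and 49.4% in either direction, so 6 of 10 is read as no result about the family. The embryonic ones were the starts of Trim71 and Trim7 and the main sites of Trim6 and Trim25 (exact test, adjusted p = 0.0307 for the latter pair), and the maternal ones the Trim37 site (0.0307) and a Trim60 site described with its cluster. When peaks below the median fold of their list were dropped, 0 embryonic sites were called.

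**Figure D3:**
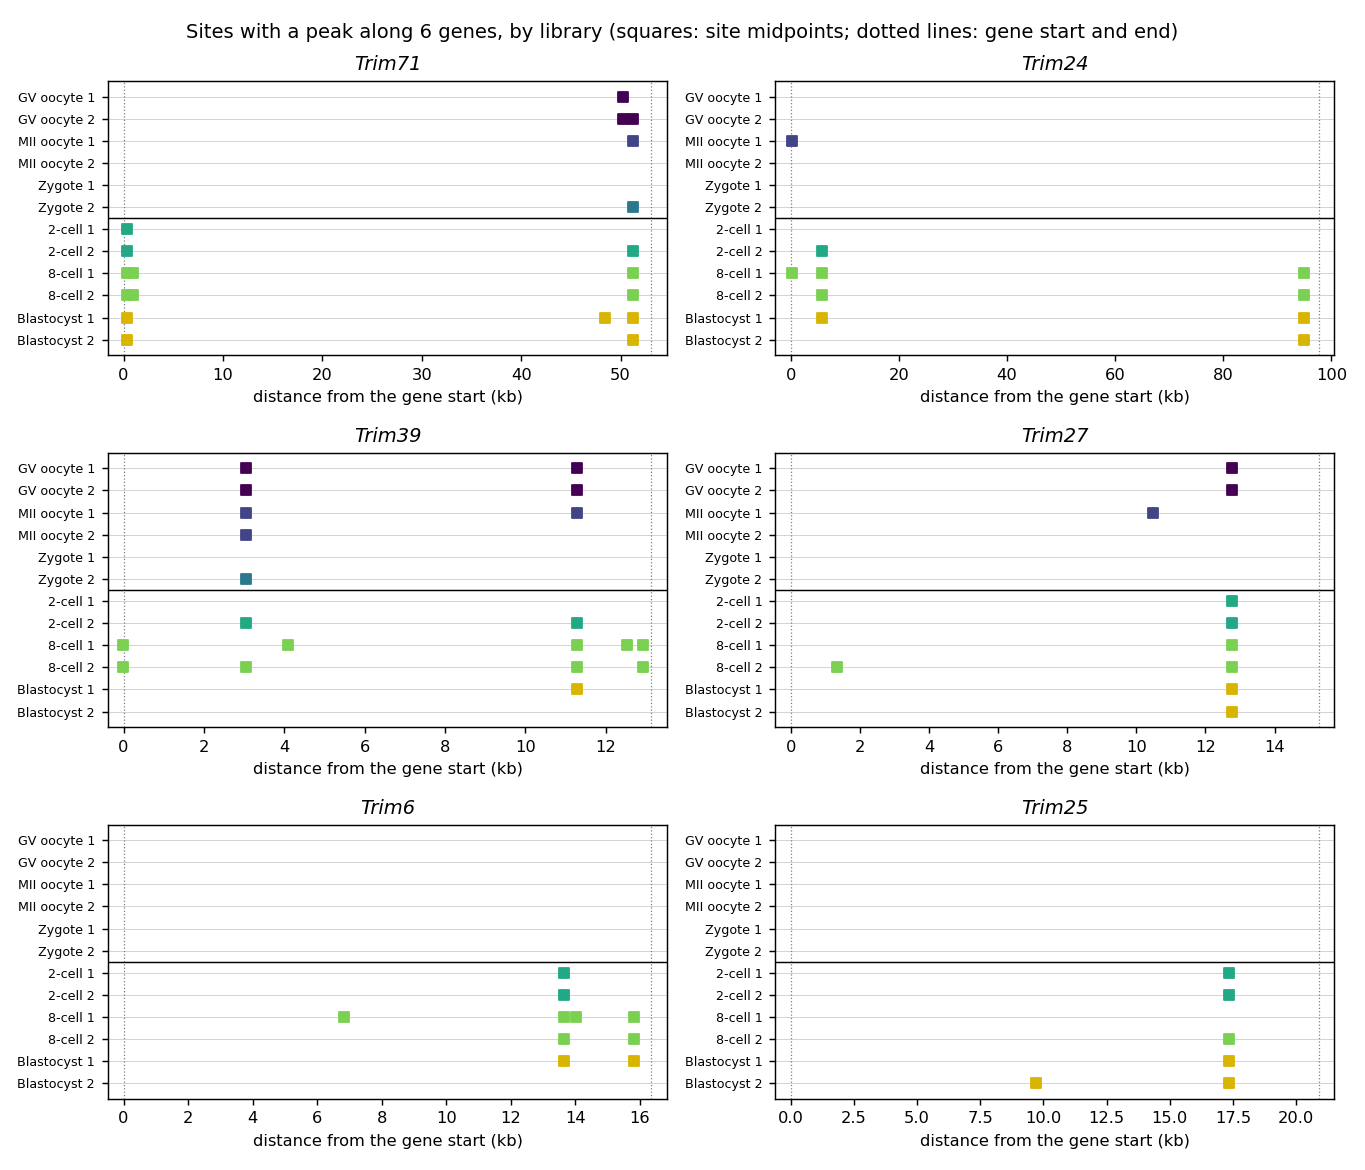
The position of each site's midpoint in kb from the gene start is plotted for 6 Trim genes, with 1 line per library, maternal above and embryonic below the black line. Trim71 has squares near the start in embryonic libraries alone, Trim24 its 3′ site in 8-cell and blastocyst libraries, and Trim39 its start site in 8-cell libraries.

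Trim27 (Ret finger protein), a nuclear repressor, was marked in both GV libraries, MII replicate 1 and all 6 embryonic libraries. The site 2511 bp before its 3′ end, chr13:21191910-21192514, was at percentile 97.6 in both GV lists, 72.1 and 68.0 in the 2-cell lists, 93.9 and 91.6 in the 8-cell lists and 94.9 and 87.4 in the blastocyst lists. MII replicate 1 lacked this site and had a peak elsewhere (percentile 39.4), and MII replicate 2 and both zygotes had no Trim27 peak. Trim62, a regulator of epithelial polarity, was marked in both GV and both blastocyst libraries, at the gene end in GV oocytes (11.4 and 7.07) and at 2 other sites in blastocysts. Trim27, like Trim33, thus had the same site in GV oocytes and again in later embryos, with no peak in either zygote library. Trim62 had no zygote peak either, but its GV site was in no blastocyst list. Its 2 blastocyst peaks, at percentile 15.1 and 5.02 of their own lists, do not overlap.

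Genomic neighbours were grouped where the next member lay within 200000 bp, giving 7 clusters with 25 members, 11 of them marked, and 38 members outside clusters, 14 of them marked. Of the members within clusters, the 3 genes on chromosome 8 had the highest-ranking peaks. Trim75, Trim60 and Trim61 were each marked in all 6 maternal libraries and both 2-cell libraries, in 0 8-cell libraries, and Trim60 and Trim61 also in blastocyst replicate 1. A pattern of 6 maternal and 2 to 3 embryonic marks that include both 2-cell libraries was found in 1.29% of all genes. Neither of these totals falls in the tested range.

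The strongest peak of Trim60 and Trim61 is the same one, since their bodies overlap. This site, chr8:65013197-65015053, lies 1149 bp before the 3′ end of Trim61 and 4563 bp inside the start of Trim60. Its peak ranked 2 and 1 in the GV lists, so in GV replicate 2 it had the best q-value of 11959 peaks. Its percentile within its own list was 99.9 in both MII, 98.9 and 99.6 in zygote and 89.8 and 73.0 in 2-cell libraries, and 15.1 in blastocyst replicate 1. It was 1833 bp wide in both GV libraries and 440 and 610 bp wide in the 2-cell libraries. In every maternal library it was thus among the strongest peaks of its list.

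Trim60 had another site, chr8:64999824-65001948, 2438 bp before its 3′ end and in no other coding gene, present in 6 maternal and 0 embryonic libraries (exact test over sites, adjusted p = 0.0102). With peaks that touch a single coding gene, Trim60 itself was called maternal, with 6 and 0 libraries (exact test, adjusted p = 0.00948). The Trim75 peak, chr8:64982544-64984262, was at percentile 99.2 and 99.3 of its list in GV, 99.7 and 98.97 in MII, 99.05 and 99.4 in zygote and 84.8 and 81.1 in 2-cell libraries. Trim75 passed the test without 2-cell replicate 1 (exact test, adjusted p = 0.0305) or 2 (0.0315). Marks at the shared site cannot be assigned to Trim60 or Trim61, and whether reads of the 3 genes can be told apart by sequence was not tested.

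The cluster of 9 members on chromosome 7, chr7:104218795-104507853, had 3 marked. Apart from Trim6, these were Trim30d, in MII replicate 1 and zygote replicate 2 (folds 4.11 and 5.96), and Trim5, the retroviral restriction factor of primates, in 8-cell replicate 1 (5.99). Trim34a, Trim34b, Trim12a, Trim12c, Trim30b and Trim30c had no peak in any library. On chromosome 17, Trim26 and Trim15 of 5 clustered members were marked, and Trim10, Trim40 and Trim31 were not.

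**Figure D4:**
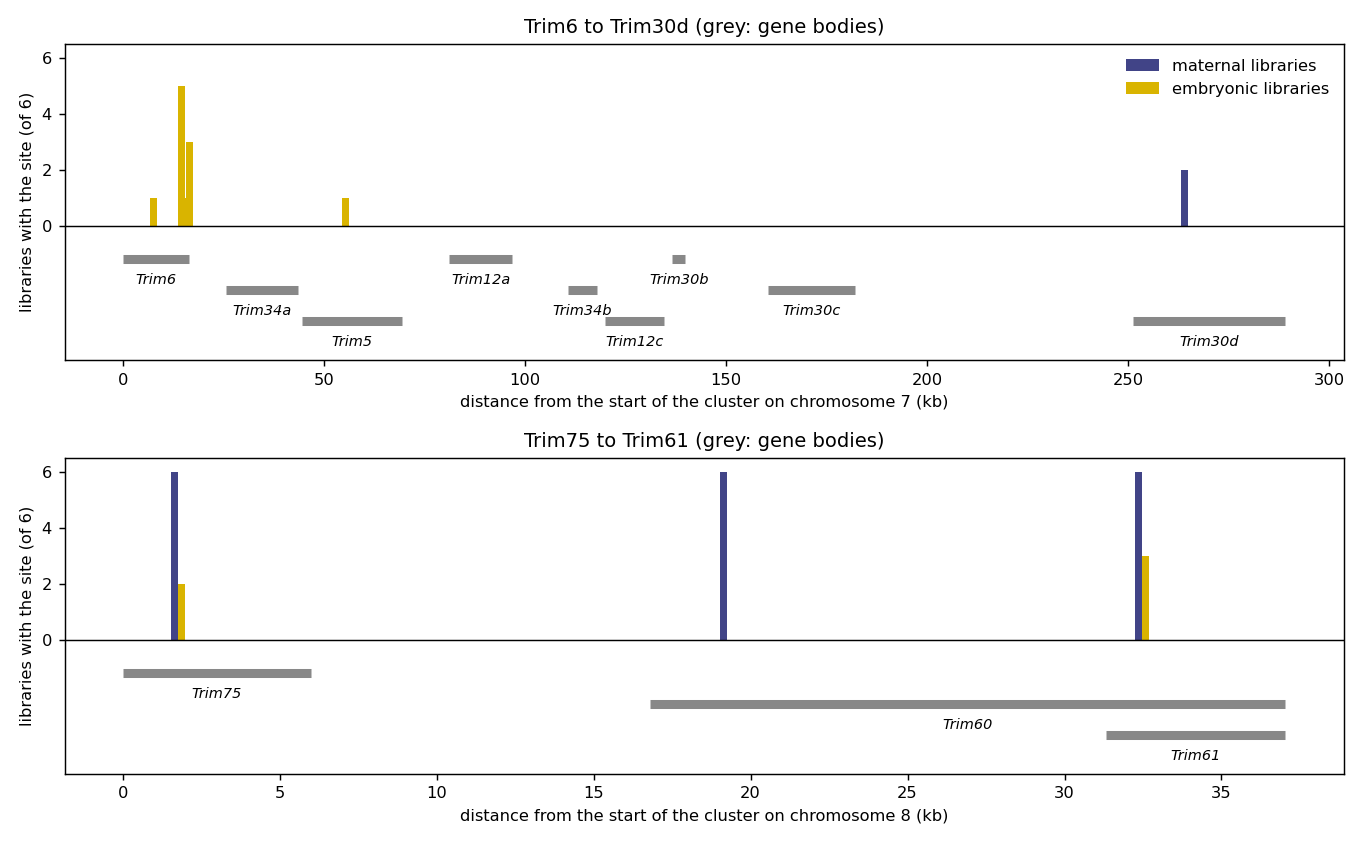
Bars give, for each site in the clusters on chromosomes 7 and 8, the number of maternal and of embryonic libraries (of 6 each) with a peak, against the distance from the start of the cluster in kb, with gene bodies in grey below. On chromosome 8 the sites have 6 maternal libraries each, and on chromosome 7 the Trim6 sites have embryonic libraries alone.

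Trim26, a PRY-SPRY ligase of antiviral signalling, was marked in all 6 maternal libraries, both 2-cell libraries and blastocyst replicate 1. Its site 1481 bp before the 3′ end, chr17:36857353-36858481, had folds of 4.68 and 4.71 in GV, 7.28 and 2.82 in MII, 2.48 and 4.42 in zygote, 7.40 and 5.33 in 2-cell libraries and 12.7 in blastocyst replicate 1. Trim15, a focal adhesion protein, was marked in both GV libraries and MII replicate 1, 309 bp from its 3′ end (5.71, 2.23 and 4.30). Trim41, a ligase for protein kinase C, had 1 site 1683 bp inside its start with folds of 11.4 and 5.05 in GV, 4.68 in MII replicate 1, 6.45 and 10.6 in zygote, 13.3 and 3.80 in 2-cell libraries and 8.52 in blastocyst replicate 2. Like the chromosome 8 genes, Trim26 and Trim41 were present in the 2-cell lists and missing from both 8-cell lists.

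Between consecutive stages, a member was counted as gained or lost when both libraries of one stage and neither of the other had it, without a test, since 2 against 2 libraries cannot reach significance. From GV to MII oocytes 0 were gained (1.51% of all genes) and Trim62 was lost (3.96%). From MII oocyte to zygote 0 were gained (0.302%) and Trim33 was lost (1.15%). From zygote to 2-cell, Trim6, Trim11, Trim25, Trim27 and Trim33 were gained, 7.94% of members against 4.47% of all genes, and Trim37 was lost (3.59%). From 2-cell to 8-cell 0 were gained (4.93%), and Trim11, Trim26, Trim41, Trim60, Trim61 and Trim75 were lost, 9.52% of members against 2.56% of all genes. These 6 are 46.2% of the 13 members marked in both 2-cell libraries, against 19.9% of the 2817 genes so marked, and 3 of them are neighbours on chromosome 8 that share a site. From 8-cell to blastocyst Trim2 and Trim62 were gained (2.17%) and 0 were lost (1.94%). Both gains hold for the gene body only, since in neither gene did the 2 blastocyst libraries share a site. The counts from 2-cell to 8-cell depend on peak strength: with the score filter 3 were lost and 4 gained, and with the fold filter 0 were lost and 5 gained. Counts at single steps also moved when 1 library was left out, most for the loss from GV to MII, which was 6 without MII replicate 1.

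The remaining marked members had marks in few libraries. Trim8, a regulator of cytokine signalling, was marked in 8-cell replicate 2 and both blastocyst libraries, with its main site, chr19:46502089-46502603, 698 bp from the nearer gene end and folds of 18.8, 9.08 and 7.38. Trim11, a ligase in protein quality control, was marked in both 2-cell libraries (4.11 and 6.31) and, elsewhere, in blastocyst replicate 2 (5.09). Trim44 had a site 506 bp inside its start in GV replicate 2, MII replicate 1, zygote replicate 2 and 2-cell replicate 2, and another near its 3′ end in both GV libraries. Trim36 had 1 site, present in 5 maternal libraries and in blastocyst replicate 1.

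By domain architecture, marks fell in 14 of 32 PRY-SPRY members, 2 of 2 with a transmembrane segment, 2 of 4 with NHL repeats, 2 of 3 with a PHD finger and bromodomain, 2 of 6 with no further domain (Trim61 and Trim8), 1 of 4 with COS box, fibronectin and PRY-SPRY domains (Trim36), 1 of 4 without a RING finger (Trim44) and the single MATH member. The unmarked members include the muscle ligases Trim54, Trim55 and Trim63, Trim72, which repairs muscle membranes, the neuronal Trim9, Trim46 and Trim67, and the antibody receptor Trim21. Also without a peak were Trim10, Trim12a, Trim12c, Trim17, Trim30b, Trim30c, Trim34a, Trim34b, Trim35, Trim38, Trim47, Trim50, Trim58, Trim65, Trim68 and Trim69 of the PRY-SPRY group, and Trim3, Trim14, Trim16, Trim23, Trim29, Trim31, Trim32, Trim40, Trim42, Trim45, Trim52, Trim56, Trim66 and Trim80. RNA levels were not analysed here, so low expression and lack of methylation cannot be told apart for these 38 genes.

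Counted as peak-gene pairs, with every peak of every library, peaks on members lay nearer the 3′ end in the median than peaks on all genes. Member sites counted once each lay farther from it than these member pairs, and sites of all genes were not measured in this way. Over the 21 marked members with a known strand, the median distance of a peak to the 3′ end was 2643 bp, against 4643 bp over 8005 genes, and 66.7% of 195 peak-gene pairs lay within 5000 bp of it, against 51.3%. Over sites, each taken once however many libraries had it, the median was 4793 bp, and 23 of 43 with a strand lay within 5000 bp of the 3′ end. Of the peak-gene pairs, 8.72% for members and 5.67% for all genes lay within 1000 bp of the start. The median width was 367 bp and 279 bp, and 25 pairs (12.8%, against 2.92%) were 1000 bp or wider. These 25 came from Trim60 (12), Trim61 (6), Trim75 (4), Trim59 (2) and Trim26 (1), with the pairs of Trim61 also among those of Trim60. The widest peak was 2124 bp in Trim60. Pairs of 1 gene share their source, so these values carry no test.

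The proteins that work with this family were read from the same fit. Their counts stand beside 45.2% of all genes marked and 49.6% of all tested genes called, and with so few genes nothing is read from them about a list. Of 13 genes of RNA and DNA sensing, 8 were marked and 3 in the tested range: Ddx58 and Cgas, the cytosolic DNA sensor, had 6 maternal and 0 embryonic libraries (exact test, adjusted p = 0.00963 each), and Map3k7, the TAK1 kinase, had 0 and 5 (0.0306). The adaptor Mavs had 6 and 3, the kinase Tbk1 6 and 2 and the TAK1 partner Tab2 6 and 6, while Ifih1, Irf3, Irf7, Traf6 and Sting1 had no peak. All 7 genes on a list of E2 enzymes and related proteins used by TRIM ligases were marked, and 5 were in the tested range. Of these 5, Ube2e1 was called maternal with 6 and 0 libraries (exact test, adjusted p = 0.00963), and Ube2d1 and Ube2d3 had 2 maternal and 4 embryonic marks each (exact test, adjusted p = 0.698), in both GV, 8-cell and blastocyst libraries. Of 8 TRIM proteins with other names 6 were marked and 0 reached the tested range. Triml1 was marked in both 8-cell and both blastocyst libraries, Bspry in both 2-cell libraries and 1 of the 8-cell libraries, and Pml in 1 GV, 2 8-cell and 1 blastocyst library.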

How the data were processed

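m6A immunoprecipitation libraries of 6 stages, 2 each, were analysed, and the 12 inputs of the 24 samples were not analysed here. The submitters' processing notes name the mm10 build with MACS2 2.1.2, HISAT2 2.1.0, bedtools 2.28.0, cutadapt 1.8.1, SAMtools 1.9, deepTools 3.2.0 and FastQC 0.11.8, without the settings used. Per the file contents, where peak names carry stage and replicate, the authors called each library separately against its own input. The deposited lists give a score, a fold enrichment (ratio), a −log10 p-value and a −log10 q-value for each summit, the lowest −log10 q-value being 1.30. Depth is unknown and limits which peaks could be called.

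Summits with the same interval (143579) were collapsed to 113764 peaks with the best q-value. Gene bodies came from a RefSeq table of GRCm38.p6, the assembly of mm10, and strand from the RefSeq promoter table, which held 50 of 63 members. Overlap of 1 bp made a mark. Fisher's exact test and Benjamini-Hochberg adjustment were run with SciPy 1.17.1, pandas 2.3.3 and Python 3.11.15 and tested on simulated marks. The smallest p that 6 against 6 libraries allow is 0.00216. Nothing in the files links replicate libraries to single animals, so p-values hold for these pools only. The test treats the 6 libraries of a phase as alike, so differences between its stages and between replicates are mixed.

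Named with values were members called, marked in all 12 libraries, gained or lost at a step, among the 3 most often marked of a subfamily, or marked in a cluster. All other marked members were added after their values were seen. The members, gene lists and subfamilies were chosen with earlier results of these data known. The site test and the search for peaks outside gene bodies were added after the gene results were seen. Alternatives changed the number, strength and position of peaks, the overlap rule, the genes tested, the grouping of stages, the cluster distance and the libraries used, and added a replicate block.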

Additional observations from a re-analysis of the deposited data

Results flagged for a closer look

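In 2 of 14 sets of 6 libraries, 1 library lay far from the others. Both were sets of fold enrichments at a member site, and the 14 also include the number of marked members per library in each phase. The rule is set to flag about 1 in 20 such sets by chance, a nominal rate that was not measured here. At the Trim59 site the fold was 6.90 in GV oocyte replicate 1, against 3.50 to 4.24 in the 5 other maternal libraries. At the Trim7 start site the fold was 10.7 in 2-cell replicate 1, against 3.40 to 5.93 in the 5 other embryonic libraries. Folds come from separately called lists, and how far this moves them was not tested.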

How the results depend on the processing

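List length and the authors' unknown depth limit what could be marked, and the calls between phases depend on peak strength: Trim6, Trim25 and Trim37 held in all 12 runs without 1 library but not under filters on score or fold. With the same number of peaks in each library, 1 member was called embryonic (Trim6) and 2 embryonic sites, Trim36 in place of Trim37 was called maternal, MII libraries had 8 marked members, the step losses were 3 (GV to MII) and 0 (MII to zygote), and the gains 2 (MII to zygote), 3 (zygote to 2-cell), 1 (2-cell to 8-cell) and 1 (8-cell to blastocyst). With peaks whose score reached the median over the pooled lists, 0 members and 0 sites were called embryonic, Trim36 took the place of Trim37 as the maternal call, and marked members were 8 (MII), 6.5 (zygote), 8 (2-cell) and 7 (blastocyst) per library. The losses were then 3, 0, 0, 3 and 1 along the 5 steps, and the gains from zygote to 2-cell, 2-cell to 8-cell and 8-cell to blastocyst 2, 4 and 0. With folds at or above the median of each library, 2 members (Trim75 and Trim36) were called maternal, 0 members and 0 sites embryonic, and marked members were 10 (GV), 2 (MII), 3.5 (zygote), 3.5 (2-cell) and 8.5 (blastocyst). The losses were then 6 (GV to MII), 0 (MII to zygote) and 0 (2-cell to 8-cell), the gains 1 (MII to zygote), 0 (zygote to 2-cell), 5 (2-cell to 8-cell) and 0 (8-cell to blastocyst), and 4 cluster members had embryonic marks, against 9. With the peak midpoint, or 50% of the peak, inside the gene, 0 members were lost from GV to MII. With peaks within 2000 bp of a gene end, 0 members were called embryonic, and Trim60 took the place of Trim37 as the maternal call. Marked members were then 10 (GV), 8 (MII), 7.5 (2-cell), 5.5 (8-cell) and 6.5 (blastocyst), the loss from MII to zygote 0, and the gains 0 (zygote to 2-cell), 1 (2-cell to 8-cell) and 0 (8-cell to blastocyst). With no filter on the number of marked libraries, 0 and 0 members were called, and 274 and 245 of all genes. Comparing oocytes with embryos, 0 and 0 members and 0 genes were called by Fisher's exact test, with 244 genes and 1 member (Trim15) at an unadjusted p under 0.05. The cause of these shifts was not tested beyond the peaks, genes or libraries each setting removes.

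The difference in the share of marked libraries (maternal minus embryonic) changed sign for Trim44 (-0.167) and Trim39 (-0.667) with equal list lengths, for Trim44 (-0.167), Trim71 (0.167) and Trim39 (-0.5) under the score filter, for Trim39 under the fold filter (-0.667) and near gene ends (-0.167), and for Trim33 (0.25) with zygotes among the embryos. None of these 4 genes was called.

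Without single libraries, 1 to 2 members were called maternal and 2 to 3 embryonic, and 2 to 3 sites maternal and 4 to 6 embryonic. The maternal count was 2 without zygote replicate 1, blastocyst replicate 1 or either 2-cell library. Marked members ranged from 16 to 17 (GV), 10 to 16 (MII), 8 to 13 (zygote), 14 to 16 (2-cell), 9 to 10 (8-cell) and 12 to 16 (blastocyst). The gains ranged from 0 to 2, 0 to 1, 5 to 6, 0 to 2 and 2 to 6 along the 5 steps, and the losses from 1 to 6, 1 to 4, 1 to 3, 6 to 7 and 0 to 2. The extremes came without MII replicate 2 (2 gained from GV, 4 lost to zygote), MII replicate 1 (6 lost from GV), zygote replicate 1 (3 lost to 2-cell), 2-cell replicate 2 (2 gained to 8-cell) and blastocyst replicate 2 (6 gained) or 1 (2 lost). Other shifts of over 1.5 times came without GV replicate 1 or MII replicate 2 (2 lost from GV to MII), either MII library (1 gained to zygote), zygote replicate 2 (3 lost from MII), either 8-cell library (1 gained from 2-cell), 8-cell replicate 2 (4 gained and 1 lost to blastocyst) and blastocyst replicate 1 (4 gained). Cluster members with marks ranged from 7 to 8 (maternal) and 8 to 9 (embryonic). Clusters joined at 500000 bp held 26 members, against 25.

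Between stages, the differences in marks between replicates correlated by -0.192 to 0.0465 over 15 pairs of stages. Such correlations cannot show whether libraries with the same replicate number were paired. A test with the replicate number as a block called the same numbers of members (1 maternal, 2 embryonic), of sites (2 and 4) and of all genes (647 and 498), with an adjusted p of 0.0403 for Trim6, Trim25 and Trim37.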

Other observations

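Some members without a peak in the body had one close by. Peaks within 5000 bp outside a gene that touch no coding gene were read for all members, a search added after the gene results were seen. Trim54, a muscle ligase with no peak inside the gene, had an upstream peak in 8 libraries, all 6 maternal ones and 2 embryonic ones, 1816 to 2742 bp before its start (chr5:31113551-31114796), with folds of 6.68 to 17.99. Trim36 had a peak 3729 to 3777 bp outside one end in 6 maternal and 2 embryonic libraries, with folds of 5.95 to 16.7. Trim72, also without a peak inside the gene, had one 1525 to 1559 bp downstream in 3 embryonic libraries, over the gene model Gm19366. Trim71 had one 2778 to 2779 bp downstream in 3 embryonic libraries (folds 3.62 to 6.96), and Trim75 one 4266 to 4710 bp downstream in 2 embryonic libraries (5.13 and 14.9). Trim24 had one 180 bp upstream in 2 maternal libraries and one 4815 to 4887 bp downstream in 2 embryonic libraries. Which transcript these peaks belong to was not tested.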
